A study of Mus musculus with 2 samples.

Results

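The cells described here were the cells of 2 mouse neurosphere cultures in which Dcx or Gad1 was detected (a normalized value over 0) while Pdgfra and Sox10 were both at 0. They numbered 550 of 12805 cells (4.30%), of which 418 lay among the 5748 cells of culture 1 and 132 among the 7057 cells of culture 2. Each was compared, within its own culture, with the 11415 cells that had 0 for all 4 genes (4653 and 6762), called comparison cells below. Dcx and Gad1 were proposed as marks of neuroblasts, the migrating young neurons, but the other genes did not bear this name out for the set as a whole, so the cells are named by the genes that chose them. The cells were selected on measured values, the normalized values of Dcx, Gad1, Pdgfra and Sox10, so the levels of these 4 genes are given as a description, and no test was made on any gene: the study has 1 condition and 2 replicate cultures, and cells of a culture are not replicates.

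Neurospheres are floating balls of dividing neural stem and progenitor cells. Both cultures were wild-type C57BL/6 cells from the dorsal telencephalon at embryonic day 14.5, grown with 10 ng/ml EGF and 10 ng/ml bFGF, dissociated and replated several times, and profiled by droplet single-cell RNA sequencing (10x Genomics). Nothing in the labels says how many embryos each culture came from. Median total UMIs per cell (UMIs tag single RNA molecules) were 19477 in culture 1 and 14637 in culture 2, and 48 cell barcodes occurred in both cultures.

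New neurons of the forebrain switch on doublecortin (Dcx), a microtubule-binding protein of migrating neurons. Those that will become inhibitory interneurons also make glutamate decarboxylase (Gad1), the enzyme that forms GABA, under homeodomain factors of the Dlx family. Pdgfra, the receptor for platelet-derived growth factor A, and Sox10, a transcription factor, mark oligodendrocyte progenitors, the dividing precursors of the myelin-forming glia.

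The genes that carry the description lie as follows on GRCm38 in the GENCODE annotation. Dcx is on chromosome X from 143855842 to 143933311 (minus strand), Gad1 on chromosome 2 from 70553072 to 70602014 (plus strand), Pdgfra on chromosome 5 from 75152292 to 75198215 (plus strand) and Sox10 on chromosome 15 from 79154908 to 79165240 (minus strand). The 250 bases before the start sites of both choosing genes, and of Sh3gl3 and Lhfpl3, whose mean levels differed between the cells with Dcx alone and those with Gad1 alone, are shown so that the choosing genes can be set beside a pair of genes that go with Dcx (RefSeq, GRCm38.p6, 5′ to 3′ on the gene's strand). Capitals mark TAATTA, a core bound by many homeodomain factors, CAGCTG, an E-box, and ACAAAG or ACAATG, cores bound by SOX factors, on either strand.
Dcx: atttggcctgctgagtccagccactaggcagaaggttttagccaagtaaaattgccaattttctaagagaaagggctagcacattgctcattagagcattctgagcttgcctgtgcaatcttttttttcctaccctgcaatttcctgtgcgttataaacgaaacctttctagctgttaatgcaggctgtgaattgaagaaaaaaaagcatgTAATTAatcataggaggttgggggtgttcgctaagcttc
Gad1: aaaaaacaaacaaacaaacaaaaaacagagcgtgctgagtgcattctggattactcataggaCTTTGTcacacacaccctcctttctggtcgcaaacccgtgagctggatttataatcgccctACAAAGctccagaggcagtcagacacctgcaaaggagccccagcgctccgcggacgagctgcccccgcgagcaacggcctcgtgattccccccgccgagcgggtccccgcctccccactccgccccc
Sh3gl3: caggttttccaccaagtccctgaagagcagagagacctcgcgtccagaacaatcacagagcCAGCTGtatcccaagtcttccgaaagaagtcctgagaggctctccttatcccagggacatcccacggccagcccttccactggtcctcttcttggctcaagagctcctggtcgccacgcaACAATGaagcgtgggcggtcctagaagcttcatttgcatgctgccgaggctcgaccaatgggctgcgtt
Lhfpl3: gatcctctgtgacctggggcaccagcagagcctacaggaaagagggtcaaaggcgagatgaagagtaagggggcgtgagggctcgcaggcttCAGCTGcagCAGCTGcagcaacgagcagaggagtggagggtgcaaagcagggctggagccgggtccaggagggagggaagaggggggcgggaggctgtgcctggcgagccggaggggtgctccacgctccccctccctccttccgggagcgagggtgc

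These windows are chrX:143933220-143933469, chr2:70561879-70562128, chr7:82174546-82174795 and chr5:22745804-22746053. Start sites are those of RefSeq, and the Gad1 and Sh3gl3 windows and part of the Dcx window lie inside the GENCODE spans of these genes. Dcx, listed with 2 start sites of which the first is shown, held 1 TAATTA and none of the other motifs, and Gad1 held 2 copies of ACAAAG and no TAATTA. Sh3gl3 held 1 CAGCTG and 1 ACAATG, and Lhfpl3 held 2 CAGCTG. Of the 32851 windows of this length that were counted, with 1 chromosome left out, 4.84% held TAATTA, 13.0% CAGCTG, 16.5% ACAAAG and 10.7% ACAATG. Each motif is thus common, and a match describes the letters only.

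The share of cells chosen was 7.27% in culture 1 (95% exact binomial interval 6.61 to 7.97%) and 1.87% in culture 2 (1.57 to 2.21%), a mean of 4.57% ± 3.82 (SD, n = 2). These intervals cover counting error only, and the difference between the cultures was far outside them. Dcx was detected in 422 cells of culture 1 (7.34%) and 110 of culture 2 (1.56%), and Gad1 in 187 (3.25%) and 50 (0.709%). Pdgfra differed in the same direction, with 8.77% of cells in culture 1 and 1.81% in culture 2. All 3 genes were thus detected several times more often in culture 1, which was also sequenced more deeply. The part of depth in this difference was not tested. Each culture was split into 5 equal depth classes, from the shallowest to the deepest. In culture 1 (class medians from 11279.5 to 30441.5 UMIs) the shares chosen were 11.3, 7.31, 4.09, 5.22 and 8.43%. In culture 2 (from 10215 to 22454 UMIs) they were 2.20, 0.850, 1.77, 1.35 and 3.19%.

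Few molecules may have stood behind many of these choices, but molecules were not counted. The lowest value that put a cell inside the set was 0.136 for Dcx and 0.146 for Gad1 in culture 1, and 0.900 and 0.449 in culture 2, while cells outside had 0. Once the depth of each cell was restored, 97.3% of Gad1-positive cells in culture 1 and 96.0% in culture 2 lay under 1.5 times the median positive value. For Dcx these shares were 65.2% and 71.8%, so about 3 in 10 Dcx-positive cells lay higher. The restored median was 1.13 in culture 1 and 2.88 in culture 2 for Gad1, and 1.15 and 4.86 for Dcx. A median of about 1 molecule is thus assumed, above all in culture 2. A 0 for Pdgfra or Sox10 means that no molecule was read, not that the gene was silent. A level of free RNA in the droplets was not measured here, since no cell type that should lack these genes was identified.

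Few cells had both Dcx and Gad1. In culture 1, 251 cells had Dcx alone, 161 Gad1 alone and 6 both, against 8.46 expected if both genes fell independently. In culture 2 the numbers were 83, 49 and 0, where 0.590 would be expected. The 0 of 7057 cells allows a share of up to 0.0425% by the 3 counts that a count of 0 permits. These numbers describe the genes that chose the cells and are too small to read a departure from independence in either direction.

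Dcx was detected more often in cells with Pdgfra or Sox10 than in the others, although most Dcx-positive cells had neither. These shares describe the choosing genes and were not tested. Among the 677 cells of culture 1 with Pdgfra or Sox10, 24.4% also had Dcx (21.2 to 27.8%), against 5.07% of the other cells (4.48 to 5.71%), at median UMIs of 16545 and 19678. In culture 2 the shares were 16.6% of 163 cells (11.2 to 23.2%) and 1.20% (0.960 to 1.49%), at 16636 and 14618.5 UMIs. Gad1 showed no such excess: 2.95% against 3.29% in culture 1 and 0.613% against 0.711% in culture 2. With the expected number computed within deciles of total UMIs, Dcx and Pdgfra were found together 2.39 and 5.35 times as often as independence gives, and Dcx and Sox10 2.96 and 7.28 times. The condition on Pdgfra and Sox10 removed 39.1% of the Dcx-positive cells of culture 1 and 24.5% of those of culture 2.

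**Figure D1:**
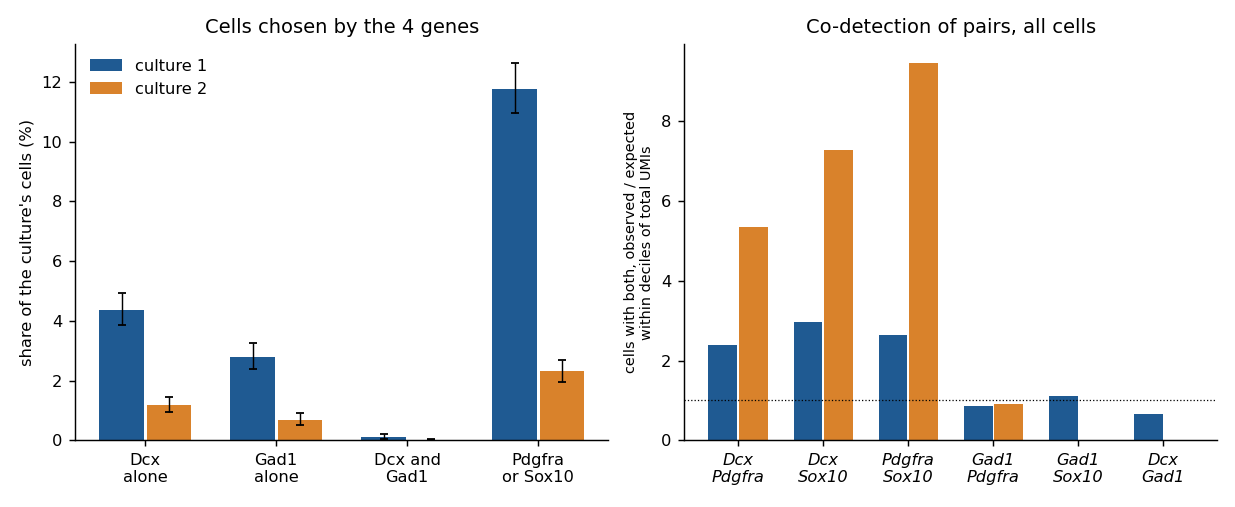
Left, share of each culture's cells (%) with Dcx alone, Gad1 alone or both among cells without Pdgfra and Sox10, and with Pdgfra or Sox10, with exact 95% binomial intervals (counting error only). Right, number of cells with both genes of a pair over the number expected within deciles of total UMIs (dotted line, 1): the 3 pairs among Dcx, Pdgfra and Sox10 stand between 2.39 and 9.45, while pairs with Gad1 are at or below 1.11.

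The chosen cells were then set against the comparison cells gene by gene, to see what else they expressed. A gene was called higher or lower where the ratio of its mean normalized value to that in the comparison cells was at least 1.5, or at most 1/1.5, in both cultures, among 10120 genes detected in at least 1% of the cells of each culture. Of these, 306 were called higher (3.02%) and 80 lower (0.791%), the latter including 13 listed at 0 in the chosen cells of at least 1 culture. In single cultures the numbers were larger, with 646 higher in culture 1 and 870 in culture 2. The median log2 ratio over all genes tested was 0.03 and 0.02. Of the 306 genes called higher, 292 were also called in the cells with Dcx alone and 8 in those with Gad1 alone, so both groups are described separately below. The cells with Dcx alone gave 593 genes higher (5.86%) and 311 lower (3.07%), and those with Gad1 alone 36 (0.356%) and 151 (1.49%), of which 81 were listed at 0 in a culture. The cells with Pdgfra or Sox10 gave 446 (4.41%) and 313 (3.09%). All these groups were measured against the same comparison cells, so their values are given side by side only. Without the 48 shared barcodes, carried by 3 and 1 of the chosen cells, 306 genes were called higher and 78 lower in the chosen cells.

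Genes of the neuronal cytoskeleton and of neuronal RNA binding were higher in the cells with Dcx alone. Of 31 tested genes on a list of neuroblast genes, 17 were called higher (54.8%, against 5.86% of all genes) and 0 lower. Their median log2 ratios were 0.77 in culture 1 and 0.87 in culture 2, against 0.06 and 0.01 over all genes. Stmn4, a microtubule-destabilizing stathmin, was detected in 25.9% and 31.3% of these cells and in 8.75% and 13.6% of comparison cells in cultures 1 and 2 (log2 ratio 1.58 ± 0.11, SD, n = 2). Mapt, the microtubule protein tau, was detected in 60.6% and 66.3% against 36.3% and 29.3% (1.58 ± 0.11). These shares were higher than in comparison cells in both cultures. Ina, a neuronal intermediate filament protein, had log2 ratios of 1.64 and 2.12, and Celf4, a neuronal RNA-binding protein, of 1.51 and 2.41. The neuronal RNA-binding proteins Elavl2 (1.13 and 1.05) and Elavl3 (1.55 and 0.70), the synaptic adhesion protein Nrxn3 (1.18 and 1.95), the growth-cone protein Crmp1 (1.04 and 1.08) and the dendritic protein Map2 (0.77 and 1.03) were also called higher. Other members were near or below 0, such as Tubb2a (-0.35 and -0.30) and Map1b (-0.06 and -0.20), which most comparison cells also expressed. The cells with Pdgfra or Sox10 shared part of this: 8 of the 31 were called higher (25.8%, against 4.41% of all genes) and 0 lower. The medians were 0.51 and 0.53. Of those cells, 24.4% in culture 1 and 16.6% in culture 2 had Dcx themselves, and their part in these values was not tested.

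In the cells with Gad1 alone 1 of 31 genes was called higher (0.356% of all genes) and 0 lower. The medians were 0.00 and 0.13, and the 1 gene was Gng3, a G protein subunit of neurons (0.73 and 1.71). Stmn4 was detected in 12.4% and 16.3% of these cells, and Mapt in 45.3% and 42.9%. Set directly against the cells with Gad1 alone, the cells with Dcx alone had 13 of the 31 genes called higher and 0 lower, where 8.20% of all genes were called higher and 3.56% lower. Ina (1.77 and 2.73) and Stmn4 (1.42 and 1.10) were among them.

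Of 11 tested genes of inhibitory neuron identity, 3 were called higher with Dcx alone (27.3%, against 5.86% of all genes) and 0 with Gad1 alone, and 0 were called lower in either group. Their median log2 ratios were 0.14 and 0.11 with Dcx alone and -0.02 and -0.25 with Gad1 alone. The 3 were Erbb4, a neuregulin receptor also made by oligodendrocyte progenitors (1.74 and 1.99), and the transcription factors Etv1 (0.78 and 0.71) and Tshz1 (0.97 and 0.67). With Pdgfra or Sox10, 2 of the 11 were called higher (18.2%, against 4.41% of all genes) and 1 lower, with medians of 0.36 and 0.30. Of 14 neuroblast and interneuron markers set out for the check of the name, Dcx, Gad1 and Elavl4 are described, while others, among them Gad2, the Dlx genes and Tubb3, were not analysed here. Elavl4, a neuronal RNA-binding protein, was called higher with Dcx alone (0.76 and 0.69) and stood at 0.01 and 0.09 with Gad1 alone.

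Counted per cell, the neuronal genes gave a small shift. Of 43 genes on the neuroblast and inhibitory lists other than Dcx and Gad1, comparison cells had a mean of 16.9 in culture 1 and 15.4 in culture 2, and the chosen cells 17.5 and 18.2, a difference of 1.68 ± 1.57 (SD, n = 2). At least 10 were found in 98.1% and 99.2% of the chosen cells but also in 99.2% and 96.6% of comparison cells. With Dcx alone the means were 17.4 and 19.1, where comparison cells weighted to the same total UMIs had 16.1 and 16.1. With Gad1 alone they were 17.6 and 16.6, where such comparison cells had 17.4 and 15.8. No cell of either group had more than 29 of the 43, and the highest of the more numerous comparison cells had 32 and 31. In culture 2 the median was 20 with Dcx alone (5th to 95th percentile 12 to 26.9) and 15 in comparison cells (10 to 21). In culture 1 both medians were 17 (10 to 25 and 12 to 22). The ranges thus overlapped, with a shift upward in culture 2. The cells with Pdgfra or Sox10 had means of 17.7 and 18.9, and up to 33 and 31 of the genes. Comparison cells weighted to their total UMIs had 16.5 and 16.4. A shift was thus not particular to the chosen cells.

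**Figure D2:**
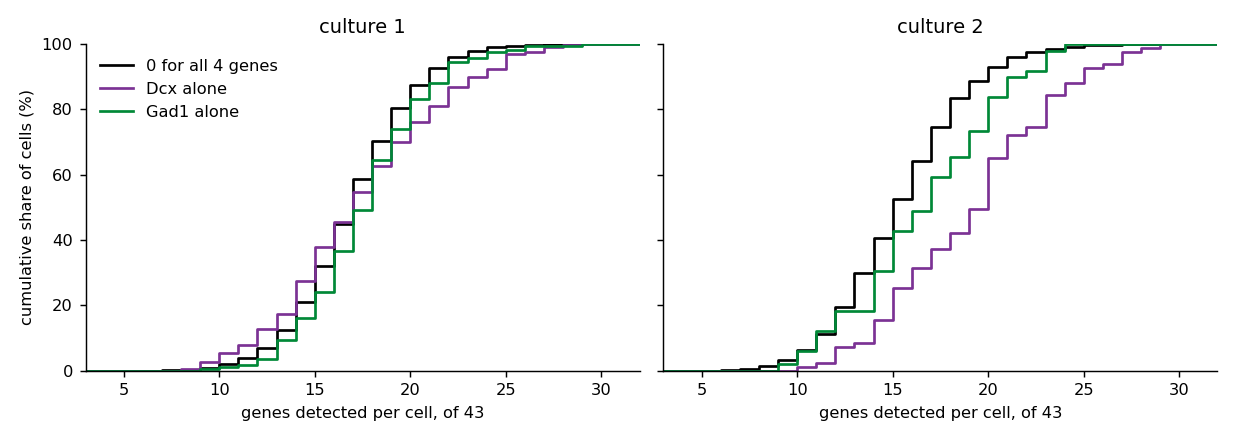
Cumulative share of cells (%) by the number of the 43 neuroblast and inhibitory genes detected, in each culture, for comparison cells (black), Dcx alone (purple) and Gad1 alone (green). The purple curve lies to the right in culture 2 (mean 19.1 against 15.4) and crosses the black one in culture 1 (17.4 against 16.9).

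Oligodendrocyte-lineage genes were called higher in the same cells as the neuronal genes. Of 9 tested genes on that list other than Pdgfra and Sox10, 4 were called higher with Dcx alone (44.4%, against 5.86% of all genes). None was called lower, and the medians were 1.12 and 0.68. Of the 9, 8 were above 0 in both cultures, as were 3659 of all 10120 genes. Lhfpl3, a membrane protein prominent in oligodendrocyte progenitors (chromosome 5 from 22746059 to 23275597, plus strand), was detected in 82.1% and 66.3% of these cells against 34.5% and 22.9% of comparison cells (log2 ratio 2.28 ± 0.34). Bcas1, a marker of oligodendrocytes starting to myelinate, was detected in 20.3% and 8.43% against 9.03% and 3.99% (2.33 ± 0.48). Cspg4, the NG2 proteoglycan of these progenitors, was detected in 19.9% and 27.7% against 9.95% and 13.1% (1.26 ± 0.09). Sirt2, a deacetylase abundant in oligodendrocytes, had ratios of 1.12 and 0.68. Olig2, which specifies the lineage, was found in nearly every cell of the cultures, and its ratios were 0.29 and 0.35.

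With Gad1 alone, 0 of these 9 genes were called in either direction. Lhfpl3 was detected in 37.9% and 24.5% of those cells (-0.21 and -0.04) and Bcas1 in 6.21% and 4.08% (-0.73 and 0.21). Both genes were thus close to their detection in comparison cells. Directly between both groups, Lhfpl3 was higher with Dcx alone by 2.25 and 2.56 on the log2 scale and Bcas1 by 2.72 and 2.46.

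Outside the lists, the 15 genes with the highest ratios in all the chosen cells were also called higher with Dcx alone, and 0 of the 15 with Gad1 alone. The first was Sh3gl3, an endophilin of membrane traffic (chromosome 7 from 82173840 to 82307419, plus strand), detected in 55.4% and 39.8% of cells with Dcx alone, 8.70% and 12.2% with Gad1 alone, and 11.2% and 7.23% of comparison cells. Its log2 ratio with Dcx alone was 3.17 ± 0.11. Against comparison cells weighted to the same total UMIs it was 2.21 in culture 1 and 3.10 in culture 2, and that of Lhfpl3 was 1.25 and 2.37. Several of the 15 are known from oligodendrocyte precursors: Tnr, the matrix protein tenascin-R (2.63 and 3.66), Ugt8a, which makes the myelin lipid galactosylceramide (2.60 and 2.96), and Tubb4a, a tubulin abundant in oligodendrocytes (2.86 and 2.39). Others serve in neurons and progenitors alike: Slc1a1, a glutamate transporter (2.72 and 4.59), Plppr1, a membrane protein of process outgrowth (2.83 and 2.78), Dscaml1, an adhesion protein (2.78 and 2.81), and Dnm3, a dynamin (2.52 and 2.51). The remaining 7 were Ptpre, Phactr3, 4430402I18Rik, Pcdh15, Tcp11l2, Csmd3 and Brinp1, between 2.23 and 4.69. Dll3, a Notch ligand of cells leaving the stem state (2.50 and 1.94), Sox9, a glial and stem cell factor (1.38 and 1.83), Bcl11b, a transcription factor of neurons (2.11 and 2.41), and S100b, a calcium-binding protein of glia (1.82 and 1.12), were called higher on other lists.

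**Figure D3:**
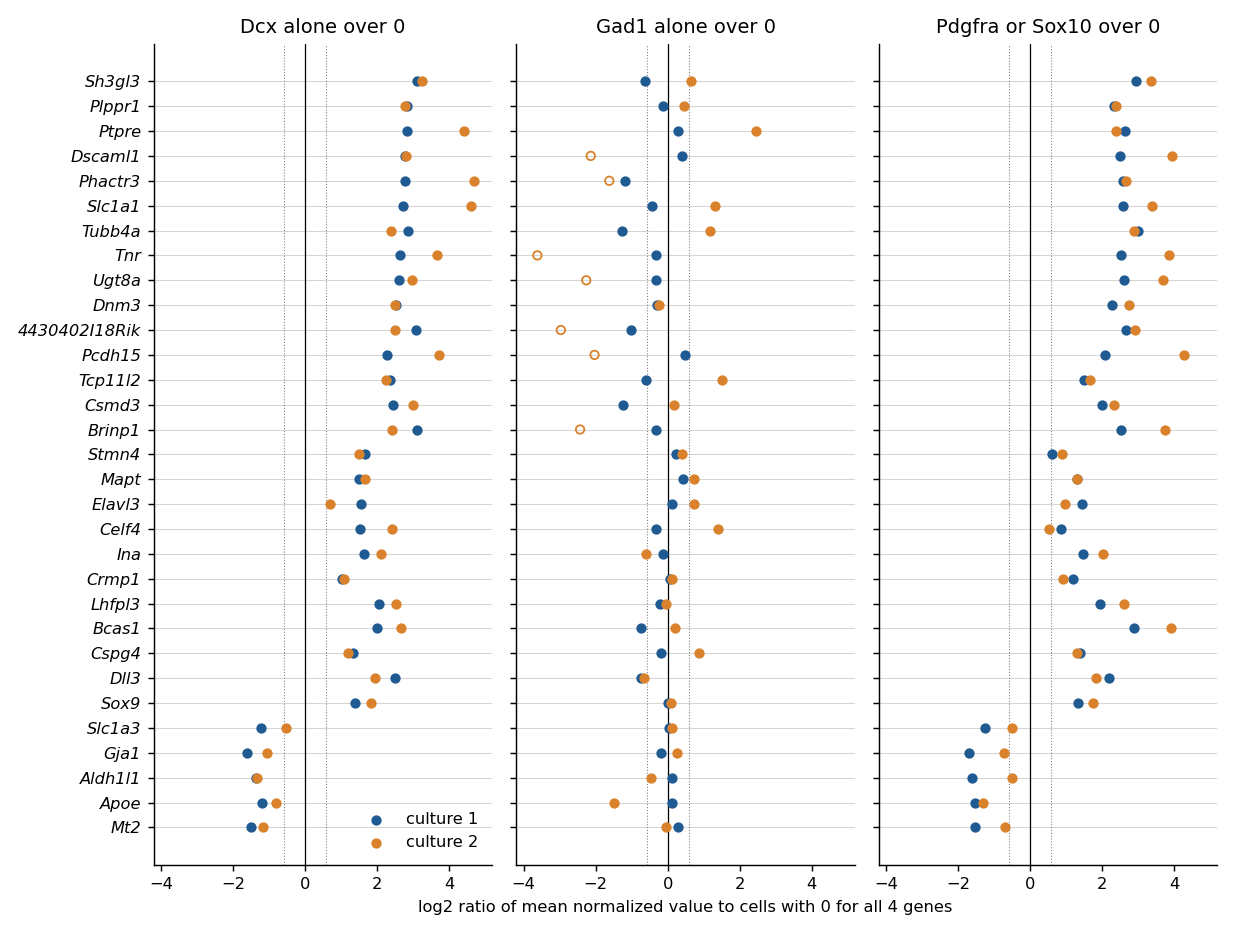
Log2 ratio of the mean normalized value to that of comparison cells for 31 genes, in cells with Dcx alone, Gad1 alone, and Pdgfra or Sox10, with 1 point per culture (blue, culture 1; orange, culture 2; open where the gene was at 0, and the point then shows only the constant added). Dotted lines mark a ratio of 1.5. The left and right panels show values on the same side of 0 for each gene, from Sh3gl3 (3.10 and 3.25) to Aldh1l1 (-1.36 and -1.33) with Dcx alone, and the second panel scatters around 0.

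Several astrocyte genes were lower in the cells with Dcx alone. Of 10 astroglial genes, 4 were called lower (40.0%, against 3.07% of all genes) and 1 higher (S100b), with medians of -1.25 and -0.19. Gja1, the gap junction protein connexin 43, was detected in 15.1% and 10.8% of the cells against 41.3% and 16.9% of comparison cells (log2 ratio -1.34 ± 0.39). Aldh1l1, a folate enzyme of astrocytes (-1.36 and -1.33), Apoe, a lipid carrier (-1.21 and -0.80), and Mt2, a metallothionein (a mean of -1.34 ± 0.23), were the other 3. Of 22 radial glia and stem cell genes, 1 was called higher (Sox9) and 1 lower (Id3, an inhibitor of differentiation, -1.22 and -0.64), a share of 4.55% each way that is near that of all genes. The list still lay lower, with medians of -0.44 and -0.20 against 0.06 and 0.01 over all genes. Of the 22, 12 were below 0 in both cultures and 4 above, against 2980 and 3659 of all 10120 genes. Slc1a3, the glutamate transporter of radial glia, was detected in 70.1% and 79.5% of cells with Dcx alone and in 95.2% and 94.4% of comparison cells, at -1.23 and -0.53. With Gad1 alone, 0 of the 10 and 0 of the 22 were called, and Slc1a3 was detected in 98.8% and 95.9%. With Pdgfra or Sox10, 5 of the 10 astroglial genes were called lower and 1 higher, with medians of -1.42 and -0.60. Of the 22, 2 were called lower and 1 higher, and 13 were below 0 in both cultures. Set directly against those cells, the cells with Dcx alone had 0 of the 10 called in either direction. Of the 22, 1 was called higher and 0 lower. The lower values were thus not particular to the cells with Dcx alone. The lowest genes outside the lists included Aldh1a3, which makes retinoic acid (-1.80 and -2.05 with Dcx alone), and Grm3, a glutamate receptor of glia (-1.51 and -2.65). Ngef was listed at 0 in all chosen cells and detected in 1.16% and 1.06% of comparison cells.

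**Figure D4:**
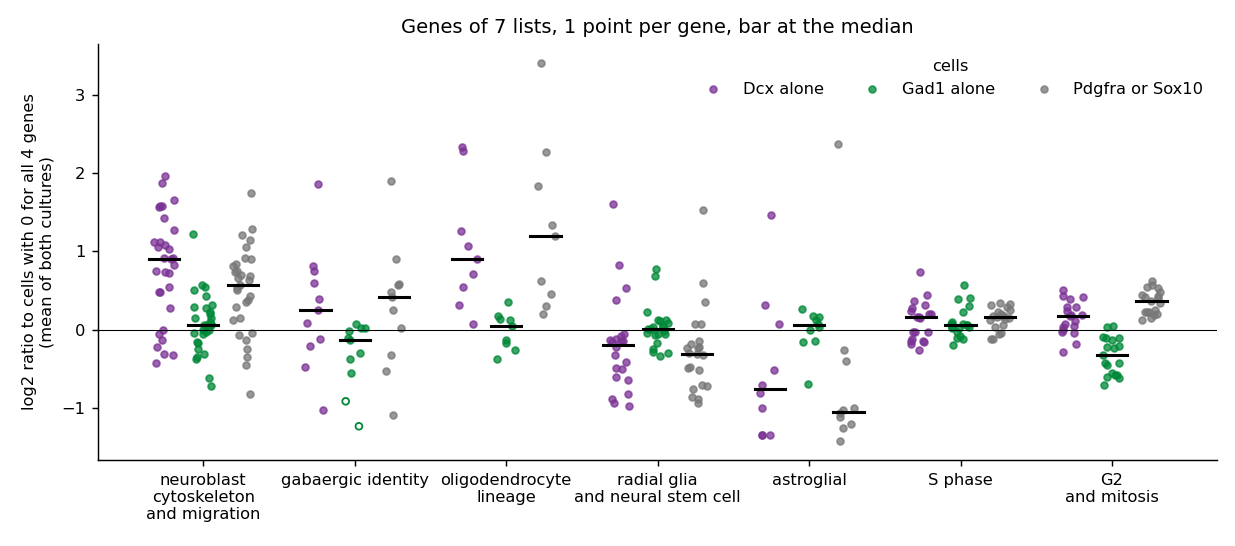
Log2 ratio to comparison cells, as the mean of both cultures, for the genes of 7 lists in cells with Dcx alone (purple), Gad1 alone (green) and Pdgfra or Sox10 (grey), with 1 point per gene and a bar at the median (open points were at 0 in a culture). With Dcx alone the neuroblast and oligodendrocyte lists lie above 0 (17 of 31 and 4 of 9 genes called higher) and the astroglial list below (4 of 10 called lower), while the Gad1 bars stay close to 0 except for G2 and mitosis.

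The cells with Dcx alone were also set directly against the 840 cells with Pdgfra or Sox10, with no shared comparison cells between them. Of the cells with Pdgfra or Sox10, 24.4% in culture 1 and 16.6% in culture 2 also had Dcx, so Dcx-positive cells stood on both sides. Only 99 genes (0.978%) were called higher and 91 (0.899%) lower, against 593 and 311 when the comparison cells were used. Of the 31 neuroblast genes 3 were called higher with Dcx alone, Stmn4 (1.05 and 0.60), Celf4 (0.65 and 1.87) and Nrxn3 (0.86 and 1.20), and 0 lower. Of the 9 oligodendrocyte genes Bcas1 was called lower (-0.90 and -1.25), and Lhfpl3 did not pass. The median ratio over the oligodendrocyte list was -0.07 and -0.09, and over the neuroblast list 0.12 and 0.36. Among other genes, chosen after their values were seen, Ebf3, a transcription factor of neurons, was higher with Dcx alone (1.15 and 1.32), and Tspan2, a tetraspanin of oligodendrocytes, was lower (-1.93 and -1.91). Both rested on few cells. Ebf3 was detected in 5.58% and 10.8% of cells with Dcx alone and in 3.99% and 6.75% of those with Pdgfra or Sox10. For Tspan2 the shares were 1.59% and 1.20% with Dcx alone and 4.58% and 7.98% with Pdgfra or Sox10. The cells with Gad1 alone differed from the same cells at 334 genes higher (3.30%) and 702 lower (6.94%), with Bcas1 (-3.62 and -3.71), Sh3gl3 (-3.56 and -2.70) and Dll3 (-2.93 and -2.48) among the lowest.

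Within the cells with Dcx alone, oligodendrocyte and neuronal genes were counted in the same cells. The 9 neuronal genes were Stmn4, Mapt, Elavl2, Elavl3, Celf4, Ina, Crmp1, Nrxn3 and Meg3, most of them called higher above in these same cells. Cells with Lhfpl3 and a neuronal gene numbered 640 in culture 1 and 174 in culture 2 when summed over the 9 pairs. Within deciles of total UMIs, 618 and 178 were expected. For Bcas1 the sums were 156 and 23 against 157 and 22.9 expected, and for Cspg4 149 and 74 against 158 and 77.2. These sums lay close to independence, some above and some below it. Single pairs varied: Lhfpl3 and Stmn4 were found together in 13 cells of culture 2, against 16.8 expected, and in 53 of culture 1, against 53.9. In comparison cells the Lhfpl3 sums were above the expected ones, at 3574 against 2804 and 3316 against 2584. So were those of Bcas1 (924 against 736 and 491 against 455) and Cspg4 (920 against 830 and 1582 against 1497). Whether the cells with Dcx alone hold more than 1 kind of cell was not tested.

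Depth moved with these groups in culture 1. Median UMIs there were 14921 with Dcx alone, 21595 with Gad1 alone and 19812 in comparison cells, and in culture 2 they were 15816, 15314 and 14604.5. Cells with Dcx alone made up 9.65% of the shallowest depth class of culture 1 (median 11279.5 UMIs), 1.74% of the next-to-deepest and 4.26% of the deepest. The share with Gad1 alone went from 1.57% of the shallowest to 3.91% of the deepest class. With comparison cells weighted to the same UMIs, 442 genes were called higher and 260 lower with Dcx alone. The part of depth in the other genes' ratios was not tested beyond this.

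Cell-cycle position is the angle, from 0 to 2π, that the study's tricycle method gives each cell. Cells within 0.25π of 0 are in G0 or G1, and those around π are in G2. This share was 41.6% of the chosen cells in culture 1 (36.9 to 46.5%) and 44.5% of comparison cells (43.1 to 46.0%), and 56.8% in both sets in culture 2 (47.9 to 65.4% and 55.6 to 58.0%). The difference was -1.43 ± 2.06 percentage points (SD, n = 2), smaller than the spread between the cultures. Against comparison cells weighted to the same total UMIs the shares were 43.9% and 52.0%, which turned the mean difference to 1.25. With Dcx alone 40.6% and 55.4% of cells lay there, and with Gad1 alone 43.5% and 59.2%.

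The circular mean was 0.422π in the chosen cells and 0.305π in comparison cells in culture 1, and 0.0487π and 1.97π in culture 2, at resultant lengths (1 if all cells share a position) of 0.152 and 0.151, then 0.311 and 0.323. The arc from 1.75π to 2π held 29.7% of chosen and 33.1% of comparison cells in culture 1, and 47.0% and 45.0% in culture 2, the fullest arc in all 4 cases. The study's own stage calls put 77.8% of chosen and 79.6% of comparison cells in G1 by cyclone in culture 1, and 85.6% and 82.7% in culture 2. By Seurat these shares were 41.9% and 44.0%, then 58.3% and 55.9%. A stage set named SchwabeCC differed more in culture 1, where 8.85% of chosen and 15.6% of comparison cells were called M.G1 and 11.0% and 7.31% G2. In culture 2 these shares were 16.7% and 16.4%, and 8.33% and 7.69%. Of 20 S-phase genes and 19 genes of G2 and mitosis, 0 were called in either direction in the chosen cells. With Dcx alone, Cdkn1a, the cell-cycle inhibitor p21, was called lower (-0.81 and -0.64) and Cdk6, a G1 kinase, higher (0.71 and 1.06). With Gad1 alone 11 of the 19 G2 and mitosis genes were below 0 in both cultures, as were 2768 of all 10120 genes. The list's medians were -0.04 and -0.61, and 0 were called. With Dcx alone 10 of the 19 were above 0 in both cultures (3659 of all genes) and 0 below, with medians of 0.35 and 0.01. Here too 0 were called. Directly between both groups, 3 of the 19 were called higher with Dcx alone (8.20% of all genes) and 0 lower. Against the cells with Pdgfra or Sox10, 11 were called lower with Gad1 alone (6.94% of all genes) and 0 higher. Of the cells with Pdgfra or Sox10, 31.6% (28.1 to 35.3%) lay near 0 in culture 1 and 46.6% (38.8 to 54.6%) in culture 2, where comparison cells weighted to the same total UMIs had 44.3% and 48.9%.

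**Figure D5:**
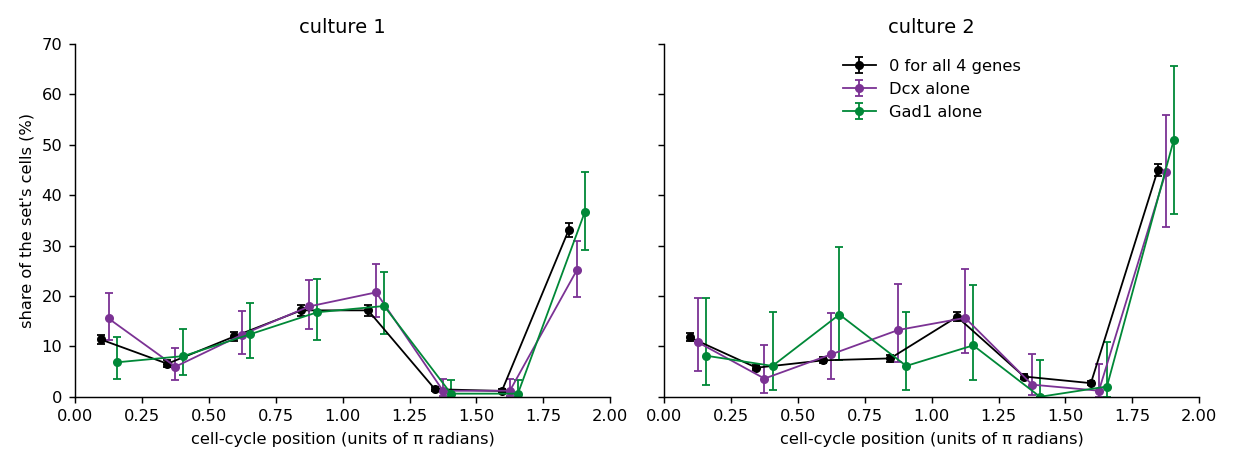
Share of cells (%) in 8 equal arcs of cell-cycle position (units of π radians, where 2 joins 0), in each culture, for comparison cells (black), Dcx alone (purple) and Gad1 alone (green), with exact 95% binomial intervals for counting error only. All 3 curves are highest in the last arc and low between 1.25π and 1.75π, and most intervals of the chosen cells include the comparison value. An exception is Dcx alone in the last arc of culture 1, at 25.1% (19.9 to 30.9%) against 33.1%. Another is Gad1 alone from 0.5π to 0.75π in culture 2, at 16.3% (7.32 to 29.7%) against 7.23%.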

How the data were processed

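Droplet libraries of both cultures were quantified by the authors with alevin (Salmon 1.3.0) on GRCm38, and outlier cells, including those with outlying doublet scores, were removed. No doublet caller was run here. The deposited expression values are a depth-normalized signal on a linear scale. The median positive value, with depth restored, was 4.16 times larger in culture 2 for Dcx, 2.49 for Gad1, 2.98 for Pdgfra and 5.20 for Sox10, against a median of 0.997 over 3898 sparsely detected genes (0.619 to 1.65 from the 5th to the 95th percentile). The cause was not tested, and levels were compared only within a culture. Deposited total UMIs are estimated counts. The deposited cell-cycle positions and stages were used as given. Of 10666 genes, 10662 matched a symbol.

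Log2 ratios of mean values had 0.01 added to both means. Called genes needed a ratio of 1.5 in both cultures. Each value is shown per culture, and no p-value was computed, since the design holds 1 condition. Genes named are the 4 choosing genes, those of 12 lists, and outside them the 15 highest and 15 lowest ratios. The cells and lists were chosen with earlier results of these data known. A list of 20 genes of other cell types could not be used. Scripts (Python 3.11.15, numpy 2.4.6) were tested on simulated data. Alternatives changed the detection value, fold, filter, constant, reference and scale.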

Additional observations from a re-analysis of the deposited data

How the results depend on the processing

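The 0 values, few cells and 2 cultures limit these results: Gad1 alone in culture 2 rested on 49 cells, and values for the choosing genes cannot be compared between cultures. No paired analysis was possible because no test was made and both cultures belong to 1 group. Requiring both Dcx and Gad1 left a share of 0.0522%, with no cell in culture 2, so no gene or position result could be given for it. A ratio of 2 left 96 genes higher and 2 lower in the chosen cells, 208 and 67 with Dcx alone, and 2 and 24 with Gad1 alone. Genes detected in at least 5% of cells gave 161 and 43, 367 higher with Dcx alone, and 7 and 36 with Gad1 alone. A constant of 0.05 gave 179 and 15, and one of 0.001 gave 152 lower. All other cells as reference gave 52 lower, and a difference of 0.1 in mean log2(value + 1) gave 343 lower. Counting only values over 1 as detected gave 515 and 253, and a co-detection ratio of 1.10 in place of 0.354. Requiring 0.75 of the median positive value gave 62 higher with Gad1 alone. With 1 culture left out, the chosen cells gave 646 to 870 higher and 372 to 684 lower, Dcx alone 1325 to 1364 and 1017 to 1132, and Gad1 alone 174 to 926 and 433 to 1685. The difference near position 0 turned from -1.43 to 1.25 with reference cells weighted to the same UMIs and to 0.683 for Gad1 alone. It was also above 0 for cells staged G1 by cyclone (0.524) or Seurat (0.156), without culture 1 (0.0302) and with the 0.75 threshold (0.166), so its direction was not settled. The causes were not tested. All alternatives for the cells with Dcx alone or Gad1 alone, the 0.75 threshold and the removal of shared barcodes were chosen after seeing the data. Other counts stayed within 1.5 times, such as those weighted by UMIs (227 and 57) or by position (300 and 76), and other values moved by less than 1 SD between cultures.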
